A study of Mus musculus with 9 samples.

Results

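A set of 33 DNA repair genes was followed in normal colonic mucosa of mice that had received the colon carcinogen 1,2-dimethylhydrazine (DMH). The genes are 33 of the 15346 named genes, and of 21964 features in all, that were measured on the arrays. They were chosen by gene symbol for their part in the repair of alkylated DNA and of the lesions that follow from it. The set holds 2 genes of direct reversal, 15 of base excision repair, 6 of mismatch repair, 6 of nucleotide excision repair (with the polymerase gene Polk) and 4 of checkpoint signalling. All 33 had a probe that passed the filter on dim probes. For 32 of them the probe was well above background on all 9 arrays, and for Ercc2 on 7. The mice were of ICR, an outbred stock, and every group had received DMH subcutaneously at 20 mg/kg each week for 20 weeks. Total RNA was labelled with Cy3 and each sample was put on its own 1-colour Agilent array. For 6 of the 9 arrays the drinking water of the mice held 1.5% butyrate, the fatty acid that gut bacteria make from fibre and that colon cells burn as fuel. By their titles, 3 of these arrays are of mice without tumors and 3 of mice with tumors. The other 3 arrays are of mice on DMH with normal water and diet, for which the labels used here give no tumor status. There was no group without DMH, so each comparison below is between groups of DMH-treated mice. A characteristic in the labels gives the 6 butyrate samples the opposite tumor status to their titles. The titles were followed, and if that characteristic is right the values with and without tumors change places. The labels do not say that the samples are of separate animals, so p-values measure the spread between these samples.

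DMH is turned in the body into a methylating agent that reacts with DNA bases of the colon epithelium. Some methyl groups are taken off the base directly, by oxidation or by transfer to a protein. Others are removed with the base in base excision repair, in which a glycosylase cuts out the base, an endonuclease nicks the strand, and a polymerase and a ligase fill and seal the gap. Methylated guanine that stays pairs with thymine, which mismatch repair recognises and which can activate the ATR and CHK1 checkpoint kinases. Bulky lesions go to nucleotide excision repair, and lesions met by a replication fork can be bypassed by translesion polymerases such as that of Polk.

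The direct reversal gene Alkbh2 and the glycosylase gene Nthl1 were lower in butyrate-treated mice than in mice on DMH alone. With arrays scaled to their 75th percentile, both differences were larger in the mice without tumors. For Alkbh2 the gap between the butyrate groups was not called. In the mice without tumors Alkbh3, Neil1, Msh6, Xpa and Polk were called lower as well, and the checkpoint kinase gene Chek1 was called higher. Each of these further calls was lost when DMH array 2 or DMH array 3 was left out. For Alkbh3 and Chek1 the call was on the brighter probe alone. In all, 8 of the 33 genes were called without tumors, where 30.5% of all features were. None of the 33 passed the test in butyrate mice with tumors against DMH when arrays were scaled to their 75th percentile, whereas Alkbh2 and Nthl1 were called lower there too with the arrays scaled to their medians, with normexp background correction and on the authors' values, and Smug1 on the authors' values alone among these scalings (-0.69, adjusted p = 0.0484). Levels are given as log2 intensity relative to the 75th percentile of the spots of the array, so that a level of 0 is at that percentile. A gene is called lower or higher when limma's Benjamini-Hochberg adjusted p, over all 21964 features, is under 0.05. Standard errors (SE) are those of the limma fit, and SDs are over the arrays of a group. Levels of different genes come from different probes and are not set against each other.

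The promoters of 4 genes that were called are shown because the genes come from different pathways and moved in both directions: Alkbh2 and Nthl1, the 2 genes called lower in all butyrate mice, Msh6, and Chek1, the 1 gene called higher. The windows are from RefSeq on GRCm38.p6 and run from 250 bases before to 50 bases after the transcript start, 5′ to 3′ on the strand of the gene. Alkbh2 is at chr5:114128169-114128468 (minus strand), Nthl1 at chr17:24632432-24632731 (plus), Msh6 at chr17:87974800-87975099 (plus) and Chek1 at chr9:36726609-36726908 (minus). Capitals mark letters of an E2F-type motif (TTTCCCGC, TTTGGCGC, TTTCGCGC or TTTGCCGC, on either strand). Only exact matches that lie wholly within a window are marked. The window of Chek1 ends in tttggcgggaa, which differs from TTTGGCGC in the last letter of that motif and is unmarked. A window without capitals can therefore still hold an E2F site. E2F factors control many genes of the S phase.
Alkbh2: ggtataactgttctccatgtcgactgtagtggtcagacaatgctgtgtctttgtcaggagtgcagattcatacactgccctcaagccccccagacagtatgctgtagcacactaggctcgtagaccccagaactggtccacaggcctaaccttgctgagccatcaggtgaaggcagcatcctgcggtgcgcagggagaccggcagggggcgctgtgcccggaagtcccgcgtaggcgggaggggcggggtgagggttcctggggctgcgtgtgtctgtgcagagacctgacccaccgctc
Nthl1: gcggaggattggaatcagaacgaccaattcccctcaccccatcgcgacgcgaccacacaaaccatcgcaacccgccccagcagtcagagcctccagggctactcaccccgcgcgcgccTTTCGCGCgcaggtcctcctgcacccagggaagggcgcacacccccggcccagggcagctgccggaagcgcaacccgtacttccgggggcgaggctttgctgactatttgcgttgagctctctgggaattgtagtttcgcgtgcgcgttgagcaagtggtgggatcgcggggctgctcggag
Msh6: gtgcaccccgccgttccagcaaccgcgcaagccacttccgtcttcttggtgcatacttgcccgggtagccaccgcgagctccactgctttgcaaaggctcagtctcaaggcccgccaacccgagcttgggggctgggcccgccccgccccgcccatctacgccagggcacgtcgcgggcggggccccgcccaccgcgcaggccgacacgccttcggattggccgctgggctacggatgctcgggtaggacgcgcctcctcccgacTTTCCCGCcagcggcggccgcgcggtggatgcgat
Chek1: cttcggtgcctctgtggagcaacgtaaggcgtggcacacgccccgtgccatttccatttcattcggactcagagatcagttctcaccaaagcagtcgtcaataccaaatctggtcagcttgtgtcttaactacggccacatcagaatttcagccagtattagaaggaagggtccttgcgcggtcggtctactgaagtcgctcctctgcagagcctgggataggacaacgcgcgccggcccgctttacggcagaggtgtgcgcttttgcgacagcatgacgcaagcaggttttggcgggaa
The motif stood 132 bases upstream of the start of Nthl1 and begins 15 bases downstream of the start of Msh6. Of the 30 members with a window, 4 held such letters (Nthl1, Msh6, Msh3 and Lig1), a share of 13.3%, against 2.26% of all 32851 windows and 2.61% of all 27025 genes. In Msh3 a TTTGGCGC and a TTTCGCGC on the opposite strand overlap. The letters TTTGAA, on either strand, as in the cell cycle homology region, were in 2 of the 30 members, Fen1 and Ercc5, or 6.67%, against 17.9% of all windows. Polb, Exo1 and Xpc had no entry in the table. Of the 4 genes with E2F-type letters, Nthl1 and Msh6 were lower in butyrate mice without tumors. Lig1 (log2 difference from DMH -0.25 ± 0.20 SE, adjusted p = 0.369) and Msh3 (0.39 ± 0.19 SE, adjusted p = 0.154) were not called. Alkbh2 and the uracil glycosylase gene Ung lie head to head on chromosome 5, with 2217 bases between their starts. Alkbh2 was lower in butyrate mice, whereas the groups of Ung overlapped, as given below.

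Arrays differed in brightness and in slide. The 75th percentile of intensity ran from 188 to 880 units, and the share of spots well above background from 57.8% to 72.5%. Slide 1 carried the 3 arrays without tumors and tumor array 1, slide 2 carried tumor arrays 2 and 3, and the DMH arrays were on slides 3 and 4, scanned on another day. Treatment, slide and scan day therefore cannot be told apart in any comparison with DMH. Slide 1 was the dimmest, with a 75th percentile of 188 to 444 units against 740 to 880 on the other slides. The first principal component is the axis along which the arrays differed most, with 46.9% of the variance. It ran from -99.2 to -54.1 on slide 1, tumor array 1 included, and from 38.1 to 69.2 on the other slides. The mucosa carried the epithelial markers: all 14 colon epithelium markers were well above background on 9 arrays. Their summed level, in units of the 75th percentile, was 739 to 1046 on the butyrate arrays and 1501 to 1729 on the DMH arrays, and 5 of 14 were called lower in the butyrate mice. Summed goblet cell markers were 217 to 860 against 1451 to 1589, with 6 of 8 called lower. Smooth muscle markers summed to 381 to 870 against 221 to 378, with 0 of 8 called over all butyrate arrays and 3 of 8 higher without tumors. Of 10 markers of enteric neurons and glia 4 were called higher. Of all features 3.35% were called lower and 5.85% higher over all butyrate arrays, and 13.8% and 16.6% without tumors. Neutrophil markers summed to 0.180 to 0.376 without tumors, 0.524 on tumor array 1, 1.71 and 5.84 on tumor arrays 2 and 3, and 3.70 to 3.97 on DMH, so the 4 arrays of slide 1 had the lowest sums. Macrophage markers summed to 5.33 to 7.42 without tumors, 7.66 to 18.1 with tumors and 9.09 to 9.35 on DMH, with 3 of 6 called lower without tumors against DMH. Lymphocyte markers reached 106 on tumor array 1 and 9.44 to 27.7 on the other 8 arrays. In such bulk RNA fewer cells of a type and less RNA per cell cannot be told apart, and the part of these shifts in the repair results was not tested.

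Against DMH, the 6 butyrate arrays had 2 of 33 repair genes lower and 0 higher, where 3.35% of all features were called lower and 5.85% higher (9.20% in either direction). Without tumors, 7 of 33 (21.2%) were lower and 1 was higher, where 13.8% of all features were lower and 16.6% higher (30.5% in either direction). Called genes without tumors numbered 14 when tumor array 1 was left out, and 2 (Alkbh2 and Nthl1) without array 2 of the mice without tumors, DMH array 2 or DMH array 3. They numbered 3 without DMH array 1, 4 without array 1 of the mice without tumors, and 6 to 9 without any other array. Over all butyrate arrays the count was 0 without any 1 DMH array and without array 2 or 3 of the mice without tumors. With tumors, limma called 0 of 33 in either direction, where 2.26% of all features were lower and 3.44% higher (5.70% in either direction). At an unadjusted p under 0.05 there were 5 with tumors (Alkbh2, Nthl1, Smug1, Pms1 and Chek1, against 29.9% of all features), 8 over all butyrate arrays (31.2%), 17 without tumors (44.5%) and 10 between the butyrate groups (34.6%). Between the butyrate groups, 2 of 33 were lower without tumors and 0 higher, where 6.99% of all features were lower and 6.56% higher (13.5% in either direction). The median log2 difference over the 33 genes was -0.26 for all butyrate arrays, -0.34 without tumors and -0.10 with tumors, each against DMH, and -0.31 between the butyrate groups. The medians over all features were 0.08, 0.08, 0.08 and -0.01. Of the 33 genes 24 had a difference below 0 in butyrate mice without tumors against DMH (46.3% of all features did), and for 18 the arrays without tumors all lay below all DMH arrays (27.2% of all features), with 2 above (32.8%). With tumors 20 of 33 were below 0, against 44.3% of all features. There 9 genes lay below all DMH arrays (19.5% of all features) and 5 above (23.1%). For all 6 butyrate arrays 25 of 33 were below 0 (45.0% of all features), 8 lay below all DMH arrays (11.9%) and 1, Chek1, above (14.5%). Between the butyrate groups, 8 lay apart lower without tumors (16.8%) and 2 higher (16.6%). Taken array by array, the median of the 33 genes relative to the DMH mean was -0.41, -0.39 and -0.17 without tumors, 0.04, -0.10 and -0.10 with tumors, and -0.02, 0.00 and 0.02 on the DMH arrays. On this scale the shift is seen on the 3 arrays without tumors, least on array 3, and it depends on the scaling. With arrays scaled to their medians, the median of the 33 genes against DMH was -0.24 without tumors (23 of 33 below 0) and -0.28 with tumors (27 of 33 below 0), and the median of all features moved by 0.10 and -0.18. On the authors' values, which held 32 of the genes, it was -0.22 (22 below 0) and -0.25 (25 below 0), with moves of 0.18 and -0.19. Relative to the median of all features, the 33 genes were at -0.42 without tumors and -0.18 with tumors on the percentile scale, -0.42 and -0.18 with median scaling, and -0.47 and -0.14 on the authors' values.

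**Figure D1:**
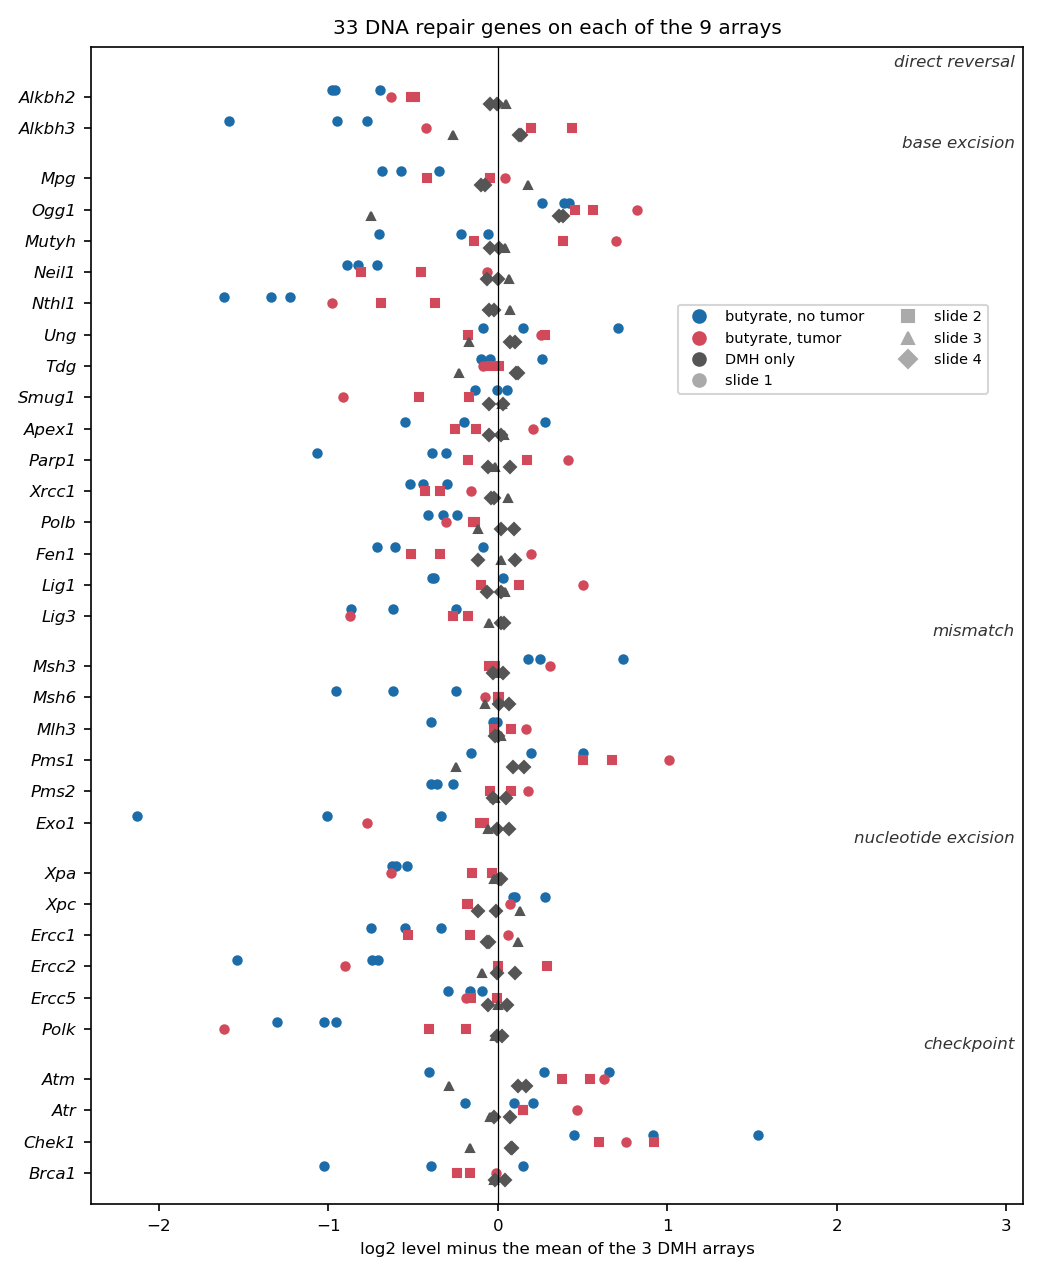
Level of each of the 33 repair genes on each array, as log2 minus the mean of the 3 DMH arrays (x axis), grouped by pathway. Each point is 1 array, colour is the group and shape is the slide. For Nthl1 the arrays without tumors lie furthest left and those with tumors between them and the DMH arrays, and for Chek1 all 6 butyrate arrays lie right of the DMH arrays.

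Both direct reversal genes were lower in butyrate mice without tumors. Alkbh2 encodes a dioxygenase that oxidises methyl groups off adenine and cytosine in double-stranded DNA. Its level was -1.12, -1.14 and -0.86 on the arrays without tumors, -0.79, -0.65 and -0.67 with tumors, and -0.11, -0.16 and -0.21 on DMH alone. All 6 butyrate arrays lay below all 3 DMH arrays, and the arrays with tumors lay above those without. The difference from DMH was -0.71 ± 0.17 SE over all butyrate arrays (adjusted p = 0.0383) and -0.88 ± 0.15 SE without tumors (adjusted p = 0.00537), that is 1.84-fold lower. With tumors it was -0.54 ± 0.15 SE and was not called (adjusted p = 0.0610). It was called there with median scaling (-0.73, adjusted p = 0.0399), with normexp (-0.53, adjusted p = 0.0271) and on the authors' values (-0.72, adjusted p = 0.0303). The gap between the butyrate groups was -0.33 and not called (adjusted p = 0.143). It was -0.05 with median scaling and -0.04 on the authors' values. With the 4 arrays of slide 1 left out, tumor arrays 2 and 3 were -0.50 ± 0.10 SE from DMH, and Alkbh2 was then the 1 repair gene called (adjusted p = 0.0453). The call over all butyrate arrays was lost without any 1 of the 3 arrays without tumors or of the 3 DMH arrays. The call without tumors was kept in each of 9 fits that left out 1 array, and was lost with slide as a random block (adjusted p = 0.0536).

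Alkbh3 encodes the related enzyme that acts on single-stranded DNA and RNA. Its brighter probe was at -0.91, -0.28 and -0.10 without tumors, 0.25, 1.11 and 0.87 with tumors, and 0.41, 0.81 and 0.80 on DMH. The arrays without tumors lay below all others, whereas those with tumors spanned the DMH range. The difference was -1.10 ± 0.29 SE against DMH (adjusted p = 0.0239) and -1.17 ± 0.29 SE against the mice with tumors (adjusted p = 0.0379). The call against DMH was lost without array 1 or array 2 of the mice without tumors and without DMH array 2 or 3, with values from -1.18 to -0.86. The other probe of Alkbh3 was at -0.35, -0.20 and -0.20 without tumors, -0.60, -0.36 and -0.55 with tumors, and -0.11, -0.20 and -0.20 on DMH, with a difference of -0.08 ± 0.14 SE from DMH without tumors (adjusted p = 0.692). With tumors it differed from DMH by -0.33. Without tumors it was 0.25 above the arrays with tumors, where the brighter probe was lower.

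Among the base excision glycosylases, Nthl1 had the largest difference of the 33 genes in butyrate mice without tumors. It encodes a glycosylase for oxidised pyrimidines. The level was -2.45, -2.06 and -2.18 without tumors, -1.81, -1.52 and -1.21 with tumors, and -0.76, -0.86 and -0.89 on DMH. The 3 groups did not overlap and kept this order. The difference from DMH was -1.39 ± 0.19 SE without tumors (2.63-fold lower, adjusted p = 0.00294) and -1.04 ± 0.27 SE over all butyrate arrays (adjusted p = 0.0449). With tumors it was -0.68 ± 0.19 SE (adjusted p = 0.0697), and it was called there with median scaling (-0.86, adjusted p = 0.0305), with normexp (-0.48, adjusted p = 0.0311) and on the authors' values (-0.85, adjusted p = 0.0218). Between the butyrate groups it was -0.71 ± 0.19 SE (adjusted p = 0.0464). The call without tumors was kept in all 25 alternative fits tried, with log2 differences from -2.47 to -0.88 and a highest adjusted p of 0.0415. The call over all butyrate arrays was lost in 13 of 26, among them the fits without tumor array 1, without any 1 of the arrays without tumors and without any 1 of the DMH arrays. Within slide 1 the arrays without tumors were at -0.41 from tumor array 1, a value with 1 array on one side, given here without a p-value.

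Neil1, whose product removes oxidised pyrimidines too, was at -1.70, -1.88 and -1.81 without tumors, -1.05, -1.79 and -1.44 with tumors, and -0.92, -1.05 and -0.99 on DMH. All butyrate arrays but tumor array 1 lay clear of the DMH arrays, and that array was level with the lowest of them. The difference without tumors was -0.81 ± 0.20 SE (adjusted p = 0.0193). It was lost in 9 of 25 alternatives, including the fits without array 2 of the mice without tumors and without any 1 DMH array.

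No other glycosylase gene among the 33 passed the test in any comparison on its brightest probe with the percentile scale. Mpg encodes the glycosylase for methylated adenine, the one most directly set against alkylation. Its level was 1.34, 1.00 and 1.11 without tumors, 1.72, 1.63 and 1.27 with tumors, and 1.86, 1.58 and 1.60 on DMH. The arrays without tumors lay below all DMH arrays, at -0.53 ± 0.18 SE (adjusted p = 0.0577). Mpg was called lower there in some alternative fits, among them quantile scaling and normexp, but not with median scaling. Smug1, a uracil glycosylase, was lowest in the mice with tumors, at -1.30, -0.56 and -0.85, against -0.52, -0.39 and -0.33 without tumors and -0.37, -0.44 and -0.36 on DMH. Its difference between the butyrate groups was 0.49 ± 0.20 SE (adjusted p = 0.127). With slide as a fixed block it was 0.89 ± 0.19 SE (adjusted p = 0.0397), in which the only array with tumors on the slide of the arrays without them is tumor array 1. Smug1 was also called higher without than with tumors with median scaling (0.77, adjusted p = 0.0311), with normexp (0.39, adjusted p = 0.0386) and on the authors' values (0.78, adjusted p = 0.0205). Ung, the other uracil glycosylase and the neighbour of Alkbh2, was at 0.29, 0.05 and 0.85 without tumors, 0.40, 0.42 and -0.03 with tumors, and -0.03, 0.21 and 0.24 on DMH. The 3 groups of Ung overlapped, and its difference from DMH without tumors was 0.26 ± 0.24 SE (adjusted p = 0.430). Tdg, which removes thymine and uracil mispaired with guanine, was at -0.24, -0.29 and 0.07 without tumors, -0.28, -0.23 and -0.18 with tumors, and -0.42, -0.07 and -0.09 on DMH. These groups overlapped as well, with a difference of 0.04 ± 0.17 SE without tumors (adjusted p = 0.875). Mutyh, which removes adenine set against oxidised guanine, was at -2.84, -2.35 and -2.19 without tumors, -1.44, -2.27 and -1.75 with tumors, and -2.09, -2.18 and -2.13 on DMH. The arrays without tumors were below those on DMH, but by -0.33 ± 0.25 SE (adjusted p = 0.338), and the spread with tumors was wider than this difference.

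Ogg1, the glycosylase for oxidised guanine, turned on 1 array. Its level was -0.83, -0.70 and -0.67 without tumors and -0.27, -0.64 and -0.53 with tumors. On DMH it was -1.84, -0.73 and -0.71, so that DMH array 1 lay more than 1 log2 unit under the others. The dimmer probe of Ogg1 showed the same array low (-4.92, against -1.59 and -1.58 for DMH arrays 2 and 3). It was also low on all 4 arrays of slide 1, at -6.45, -5.17 and -4.42 without tumors and -4.67 on tumor array 1, against -1.44 and -1.36 on slide 2. Neither probe passed the test in any comparison.

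The genes that act after base removal leaned lower without passing in the fit used here. Without tumors the difference from DMH was -0.59 ± 0.24 SE for Parp1, whose product senses strand breaks (adjusted p = 0.0944). It was -0.42 ± 0.15 SE for Xrcc1, the scaffold of single-strand break repair (adjusted p = 0.0603). For Lig3, the ligase bound to that scaffold, it was -0.58 ± 0.23 SE (adjusted p = 0.0899). Fen1, the flap nuclease, was at -0.47 ± 0.24 SE, Polb, the gap-filling polymerase, at -0.33 ± 0.14 SE, and Apex1, the endonuclease that nicks the strand, at -0.16 ± 0.23 SE, with adjusted p from 0.111 to 0.624. In alternative scalings, Xrcc1 was called lower without tumors with quantile scaling and with normexp, and Polb with normexp. Neither was called with median scaling. Xrcc1 had levels of 1.71, 1.79 and 1.93 without tumors, 2.07, 1.80 and 1.89 with tumors, and 2.29, 2.21 and 2.19 on DMH, so all butyrate arrays lay below all DMH arrays. Parp1 had 0.27, 1.03 and 0.95 without tumors, 1.75, 1.16 and 1.51 with tumors, and 1.32, 1.28 and 1.41 on DMH, with array 1 of the mice without tumors the lowest. Polb was at -0.10, -0.19 and -0.02 without tumors, -0.08, 0.08 and 0.09 with tumors, and 0.11, 0.24 and 0.32 on DMH, and Lig3 at -2.39, -2.14 and -1.77, then -2.39, -1.70 and -1.79, and -1.58, -1.49 and -1.51. On these probes of both genes the butyrate arrays were all below the DMH arrays. The other probe of Lig3 overlapped between the groups and differed from DMH by 0.09 without tumors and 0.11 with tumors. Fen1 was at -0.17, -0.06 and 0.46 without tumors, 0.74, 0.03 and 0.21 with tumors, and 0.56, 0.43 and 0.65 on DMH, where its groups overlapped. Lig1, the ligase of replication and of long-patch repair, was at 1.09, 1.08 and 1.50 without tumors, 1.97, 1.37 and 1.60 with tumors, and 1.51, 1.49 and 1.41 on DMH. Apex1 was at 2.15, 2.50 and 2.98 without tumors, 2.91, 2.45 and 2.57 with tumors, and 2.74, 2.65 and 2.72 on DMH. In Lig1 and Apex1 the butyrate arrays lay on both sides of the DMH arrays. Over the 15 base excision genes the median difference was -0.33 without tumors and -0.14 with tumors, and 2 and 0 of 15 were called lower, where 13.8% and 2.26% of all features were.

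In mismatch repair, 1 of 6 genes was called, as lower without tumors against DMH, where 13.8% of all features were lower. Msh6, which pairs with its partner to recognise base mismatches, was at 0.64, 0.98 and 1.35 without tumors, 1.52, 1.60 and 1.61 with tumors, and 1.52, 1.66 and 1.60 on DMH. The arrays without tumors lay below the other 6, whose groups overlapped. The difference from DMH was -0.61 ± 0.19 SE (1.52-fold lower, adjusted p = 0.0442). It lost its call in 13 of 25 alternatives, among them 7 of the 9 fits without 1 array. Exo1, the exonuclease that removes the mismatched strand, was at -2.18, -1.06 and -0.39 without tumors, -0.83, -0.13 and -0.15 with tumors, and -0.11, -0.06 and 0.01 on DMH. All arrays without tumors lay below DMH, but their spread (SD 0.91) was wide, and the difference of -1.16 ± 0.41 SE was not called (adjusted p = 0.0639). Msh3, which recognises small loops, was at 0.29, 0.36 and 0.85 without tumors, 0.42, 0.10 and 0.06 with tumors, and 0.11, 0.08 and 0.14 on DMH. All arrays without tumors were above DMH on this probe, and Msh3 was not called. Of its other probes, both dimmer, one differed from DMH by 0.34 without tumors and the other by -0.71 (adjusted p = 0.0555), with all arrays without tumors below all DMH arrays.

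None of the 3 genes of MutL proteins, which act after recognition, was called. Pms2 was at -1.63, -1.60 and -1.50 without tumors, -1.06, -1.29 and -1.16 with tumors, and -1.25, -1.19 and -1.27 on DMH, with the arrays without tumors below all others. It differed from DMH by -0.34 ± 0.14 SE without tumors (adjusted p = 0.0922) and by 0.07 with tumors. Mlh3 was at -2.16, -1.77 and -1.80 without tumors, -1.60, -1.69 and -1.79 with tumors, and -1.75, -1.76 and -1.79 on DMH, and the 3 groups overlapped. Pms1 was at -2.52, -2.16 and -1.85 without tumors, -1.35, -1.85 and -1.68 with tumors, and -2.60, -2.20 and -2.26 on DMH. All its arrays with tumors lay above DMH, with a difference of 0.73 ± 0.23 SE that was not called (adjusted p = 0.0822).

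In nucleotide excision repair, Xpa and Polk were lower without tumors. Xpa, whose product verifies the damaged strand, was at -0.62, -0.53 and -0.59 without tumors, -0.63, -0.03 and -0.14 with tumors, and -0.02, 0.02 and 0.01 on DMH. The 4 arrays of slide 1 were together, and the 2 arrays of slide 2 were near DMH. The difference without tumors was -0.59 ± 0.18 SE (adjusted p = 0.0392). Within slide 1 the arrays without tumors were at 0.05 from tumor array 1, again with 1 array on one side and without a p-value. Polk, a translesion polymerase that also fills excision gaps, was at -3.14, -2.86 and -2.79 without tumors, -3.45, -2.02 and -2.24 with tumors, and -1.85, -1.81 and -1.84 on DMH. Here too tumor array 1 lay with the arrays without tumors, and below them. The difference without tumors was -1.10 ± 0.34 SE (2.14-fold lower, adjusted p = 0.0406). With slide as a random block the values were -0.45 ± 0.23 SE for Xpa (adjusted p = 0.258) and -0.76 ± 0.40 SE for Polk (adjusted p = 0.277). Without 1 array, Xpa kept its call in 3 of 9 fits and Polk in 3 of 9. Both lost it without any 1 array of the mice without tumors or any 1 DMH array.

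Ercc1, part of the nuclease that cuts on one side of the lesion, was at 1.14, 0.93 and 0.73 without tumors, 1.54, 0.95 and 1.31 with tumors, and 1.59, 1.43 and 1.41 on DMH. The arrays without tumors were below all DMH arrays (-0.54 ± 0.20 SE, adjusted p = 0.0659). Ercc1 was called lower there with normexp, but not with quantile or median scaling. Ercc2 encodes a helicase of TFIIH that opens the strands. It was at -5.19, -4.40 and -4.36 without tumors, -4.55, -3.65 and -3.36 with tumors, and -3.74, -3.55 and -3.66 on DMH, and its difference of -1.0 ± 0.34 SE without tumors was not called (adjusted p = 0.0542). As in Xpa and Polk, tumor array 1 lay nearer to the arrays without tumors than to tumor arrays 2 and 3. Ercc5, the nuclease on the other side, was at -1.42, -1.22 and -1.30 without tumors, -1.32, -1.29 and -1.14 with tumors, and -1.13, -1.19 and -1.08 on DMH (-0.18 ± 0.14 SE without tumors, adjusted p = 0.338). Xpc, which starts global repair, was at 0.58, 0.76 and 0.57 on its brighter probe without tumors, 0.55, 0.30 and 0.30 with tumors, and 0.61, 0.36 and 0.47 on DMH. The butyrate arrays overlapped with those on DMH, and the arrays without tumors lay above those with tumors. The difference from DMH was 0.16 ± 0.15 SE without tumors (adjusted p = 0.454).

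For the 4 checkpoint genes, on their brightest probes, the median difference from DMH was 0.10 without tumors and 0.39 with tumors, where that of all features was 0.08 in both. The other probes of Atm and Atr had lower means without tumors than on DMH. Chek1, the kinase that ATR activates at stalled forks, was at -2.32, -1.85 and -1.23 without tumors, -2.01, -1.85 and -2.17 with tumors, and -2.93, -2.69 and -2.69 on DMH. All 6 butyrate arrays lay above all DMH arrays. The difference was 0.97 ± 0.27 SE without tumors (1.95-fold higher, adjusted p = 0.0275). It was 0.76 ± 0.27 SE with tumors (adjusted p = 0.106) and 0.86 ± 0.24 SE over all butyrate arrays (adjusted p = 0.0515). Its second probe differed by 0.36 ± 0.32 SE without tumors (adjusted p = 0.408). The call was lost in 10 of 25 alternatives, among them the fits without array 2 or array 3 of the mice without tumors and without any 1 DMH array. With no scaling between arrays, which moved the median of all features by -1.08, the value was -0.11.

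Atr was at 0.74, 1.03 and 1.14 without tumors, 1.40, 1.08 and 1.08 with tumors, and 0.89, 1.00 and 0.91 on DMH. Atm was at -2.58, -1.90 and -1.51 without tumors, -1.54, -1.62 and -1.79 with tumors, and -2.46, -2.0 and -2.05 on DMH. On these brightest probes of both genes the arrays with tumors lay above all DMH arrays and those without tumors on both sides of them. On the dimmer probe of Atm all butyrate arrays lay below all DMH arrays. On the other probes of Atr the arrays with tumors overlapped with DMH. Atr and Atm encode the kinases at the head of the checkpoints. Neither was called on its brightest probe, and their differences from DMH without tumors were 0.04 ± 0.17 SE and 0.17 ± 0.27 SE. Brca1, which acts in recombination, was at -1.48, -0.85 and -0.31 without tumors, -0.47, -0.62 and -0.70 with tumors, and -0.48, -0.47 and -0.42 on DMH, where the groups overlapped (-0.42 ± 0.27 SE, adjusted p = 0.253).

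**Figure D2:**
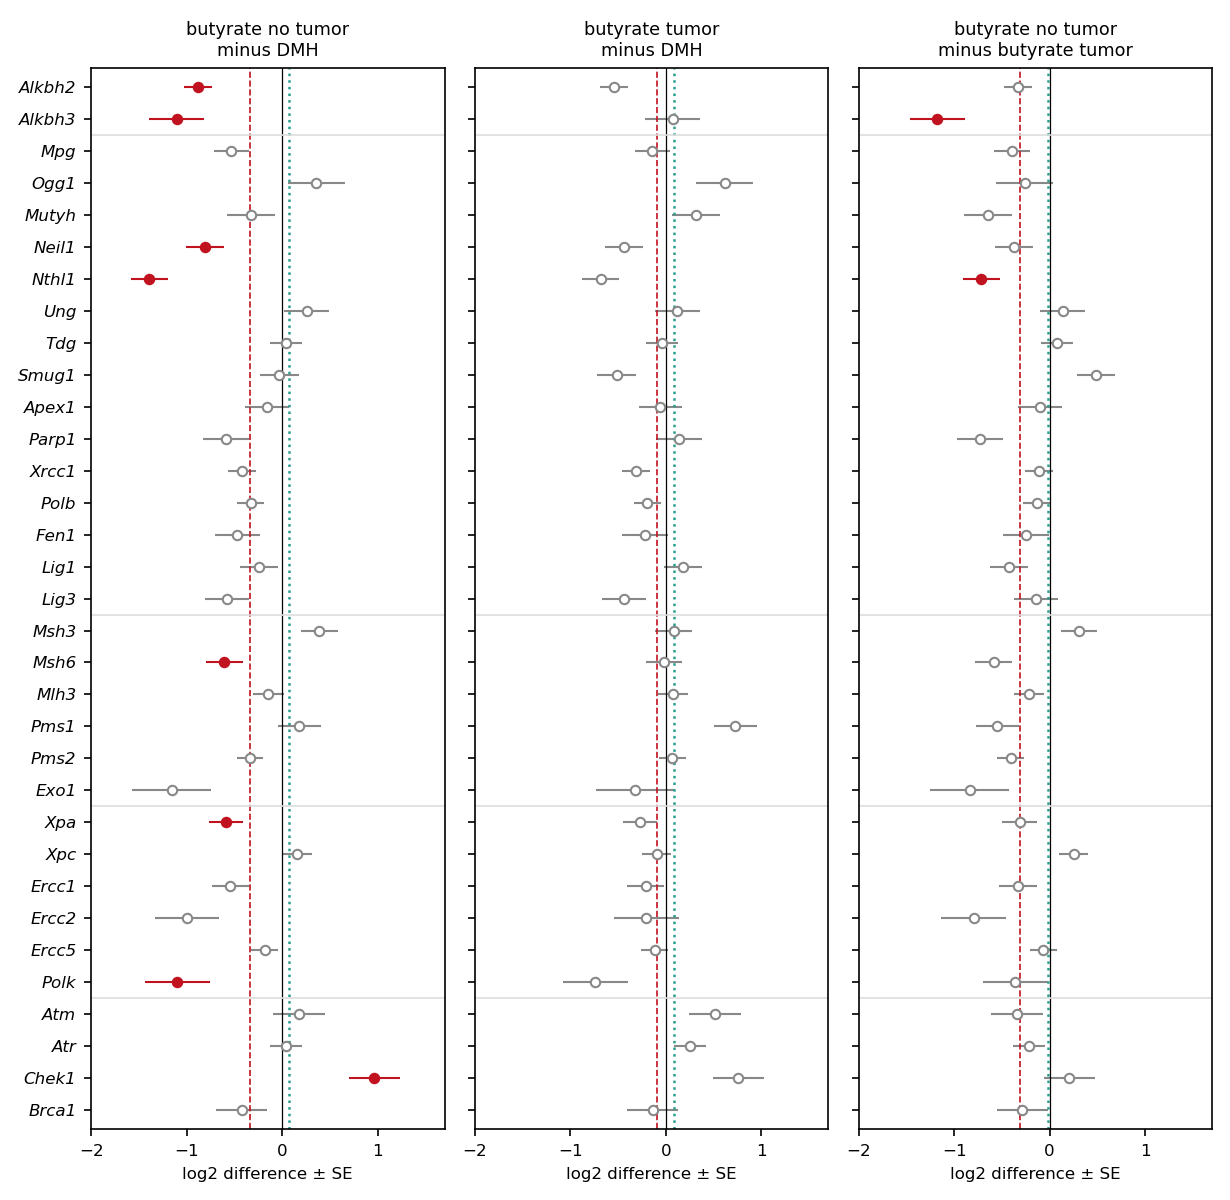
Log2 difference ± SE of the 33 genes (y axis, in order of pathway) in 3 comparisons, from limma. Filled red points have an adjusted p under 0.05. The dashed red line is the median of the 33 genes and the dotted green line that of all features. In the left panel 7 filled points lie left of 0 and 1, Chek1, right of it, and the middle panel has none.

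The butyrate mice without tumors were lower than those with tumors in 27 of 33 genes, where 50.8% of all features were lower. With median scaling it was 18 of 33 and on the authors' values 16 of 32, with medians of -0.03 and -0.01 against -0.31, while the median of all features moved by 0.28 and 0.37. Relative to all features the median of the genes was -0.30 on the percentile scale, -0.30 with median scaling and -0.37 on the authors' values. Only Alkbh3 and Nthl1 passed the test there on the percentile scale, and both calls depended on the fit. Alkbh3 kept its call in 9 of 27 alternatives and Nthl1 in 8 of 27. Each lost it without any 1 array except tumor array 1. With slide as a fixed block, in which the comparison rests on slide 1, Alkbh3 was -0.68 ± 0.33 SE (adjusted p = 0.229) and Nthl1 -0.41 ± 0.23 SE (adjusted p = 0.282). Tumor array 1 was nearer to the mean of the arrays without tumors than to the mean of tumor arrays 2 and 3 in 13 of 33 genes, Alkbh3, Nthl1, Exo1, Xpa, Ercc2 and Polk among them. In the other 20, Alkbh2, Neil1, Msh6 and Chek1 among them, it was nearer to the arrays with tumors.

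Of the 33 genes 13 had several probes, 48 probes in all, of which 45 passed the filter. This allowed 12 further probes of 10 genes to be set beside the brightest one, all fitted together with adjustment over all probes. In butyrate mice without tumors against DMH, 8 of these 12 differed in sign from the brightest probe and 5 differed in call. The dimmer probe of Xpc was at -1.99, -1.66 and -1.78 without tumors, -1.85, -1.11 and -0.95 with tumors, and -0.58, -0.64 and -0.44 on DMH. It did not overlap between butyrate and DMH arrays, with a difference of -1.26 ± 0.24 SE without tumors (adjusted p = 0.00886), against 0.16 on the bright probe. The dimmer probe of Atm was at -4.76, -4.35 and -4.09 without tumors, -4.49, -4.15 and -4.28 with tumors, and -3.56, -3.51 and -3.46 on DMH. It too lay apart from DMH on all 6 butyrate arrays, by -0.89 ± 0.20 SE without tumors (adjusted p = 0.0137) and -0.84 ± 0.18 SE over all of them (adjusted p = 0.0320). For Alkbh3 and Chek1 the call was on the brighter probe alone.

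The dimmest of 3 probes of Atr was not well above background on any array without tumors, and well above it on 2 of 3 with tumors and 2 of 3 on DMH. Its mean was -4.64 on DMH and -7.59 without tumors (adjusted p of the limma fit 0.0205). Both means hold arrays on which the probe was not well above background, so the size of the difference is uncertain. The array with tumors that was not above background was tumor array 1. The files give no sequence for these probes, so it was not tested which transcript forms they bind.

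**Figure D3:**
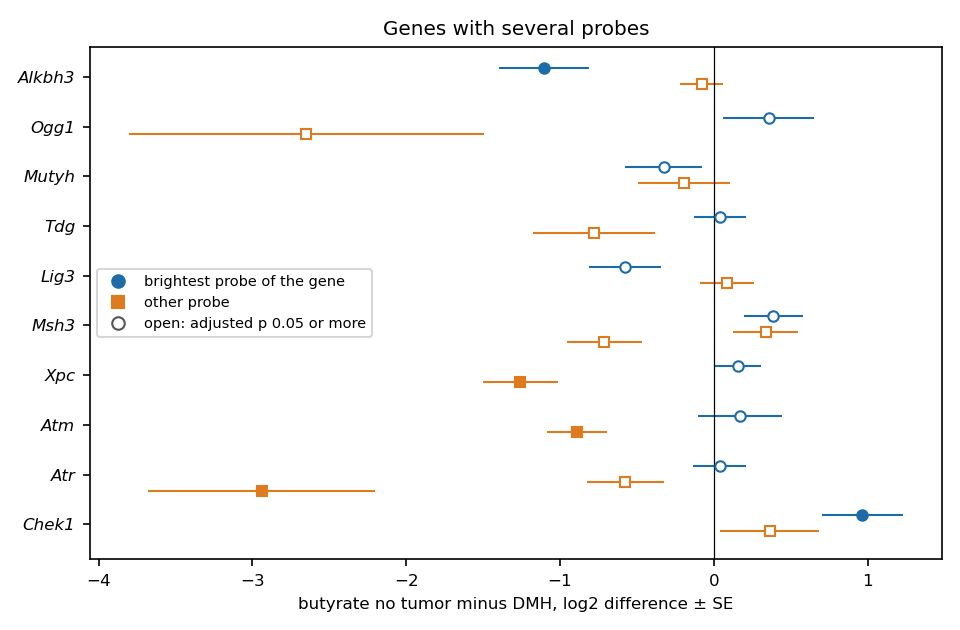
Log2 difference ± SE between butyrate mice without tumors and DMH mice (x axis) for each probe of the 10 genes with several measured probes. Blue circles are the brightest probe, orange squares the others, and filled symbols have an adjusted p under 0.05. Msh3 and Atr have 3 probes each. In Xpc and Atm the filled orange square lies left of 0 and the blue circle right of it.

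Other genes of repair and of replication were taken from lists of related factors, 85 in all, of which 79 were measured. Mgmt, Ascc3, Rpa1 and Mdc1 had no probe that could be matched to their symbols, and Neil2 and Bard1 were under the filter. Without tumors against DMH, 14 of 79 were lower and 11 higher, where 13.8% and 16.6% of all features were. Over all butyrate arrays 1 was lower and 2 higher, where 3.35% and 5.85% of all features were. Their median difference was 0.02 without tumors and 0.07 over all butyrate arrays, both close to that of all features. Of 3 measured partners of direct reversal, Ascc1, part of the complex that works with ALKBH3, was lower without tumors at -1.42 ± 0.34 SE (adjusted p = 0.0174). Of 12 further base excision genes, 1 was lower and 3 were higher. Mbd4, a glycosylase for thymine set against guanine, was lower by both comparisons, at -1.66 ± 0.20 SE against DMH (adjusted p = 0.00185) and -1.52 ± 0.20 SE against mice with tumors (adjusted p = 0.0118). Neil3 (0.76), Parg (0.68) and Hmgb1 (0.50) were higher than on DMH.

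Of 14 replication factors that fill repair gaps, 5 were lower without tumors against DMH and 0 higher, where 13.8% and 16.6% of all features were. The 4 with the smallest p were Pold2 (-1.17), Rpa2 (-1.13), Pole (-1.21) and Pole2 (-1.30). Pold2, a subunit of polymerase delta, was also lower over all butyrate arrays (-1.05 ± 0.20 SE, adjusted p = 0.0268) and in mice with tumors (-0.94 ± 0.22 SE, adjusted p = 0.0466). Of 8 translesion genes, 4 were higher and 2 lower without tumors, where 16.6% and 13.8% of all features were. The translesion genes with the smallest p were Rev1 (1.44), Rev3l (0.89) and Ube2b (0.64), which were higher, and Rad18 (-0.87), which was lower. Rev1, the scaffold on which translesion polymerases are exchanged, was higher over all butyrate arrays (1.11 ± 0.24 SE, adjusted p = 0.0311) and in mice with tumors (0.77 ± 0.15 SE, adjusted p = 0.0351).

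Of 18 further nucleotide excision genes, Ercc6, which couples repair to transcription, was higher without tumors (1.16 ± 0.15 SE, adjusted p = 0.00246) and over all butyrate arrays (0.86 ± 0.22 SE, adjusted p = 0.0442), and Rad23b (-1.38) and Xab2 (-0.51) were lower without tumors. Of 24 genes of checkpoint and recombination, 3 were lower without tumors (Xrcc2, -1.37, Rnf8, -1.30, and Rad54l, -0.91) and 3 higher (among them Rnf168, 0.52). Between the butyrate groups 4 of the 79 genes were lower without tumors (Mbd4, Rpa2, -0.99, Xrcc2, -0.87, and Poli, -1.68) and 3 higher (Rev1, 0.67, Ercc6, 0.58, and Ube2a, 0.52). Of all features 6.99% were lower and 6.56% higher there. Proliferation genes share their time of expression with Exo1, Msh6, Fen1 and Lig1. Without tumors against DMH 5 of 21 were lower and 0 higher, where 13.8% and 16.6% of all features were. The 4 of smallest p were Cdk1 (-1.24), Mcm2 (-1.75), Bub1b (-0.92) and Mcm3 (-1.07). The median of the proliferation genes relative to the DMH mean was -0.51, -0.15 and 0.00 on the 3 arrays without tumors, 0.15, -0.10 and 0.01 with tumors. Among the arrays without tumors, array 1 was the lowest and array 3 the highest in this median, in Exo1, in Msh6 and in Fen1. The same held for the median of all 33 repair genes and for Atm, Atr and Chek1. It held as well for Alkbh3, Ogg1, Mutyh, Smug1, Apex1, Xrcc1, Lig3, Msh3, Pms1, Pms2, Ercc2, Polk and Brca1. This order of arrays was therefore not particular to the genes that share their time of expression with proliferation. In Lig1 array 2 was the lowest. Whether proliferation has a part in the repair values was not tested.

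**Figure D4:**
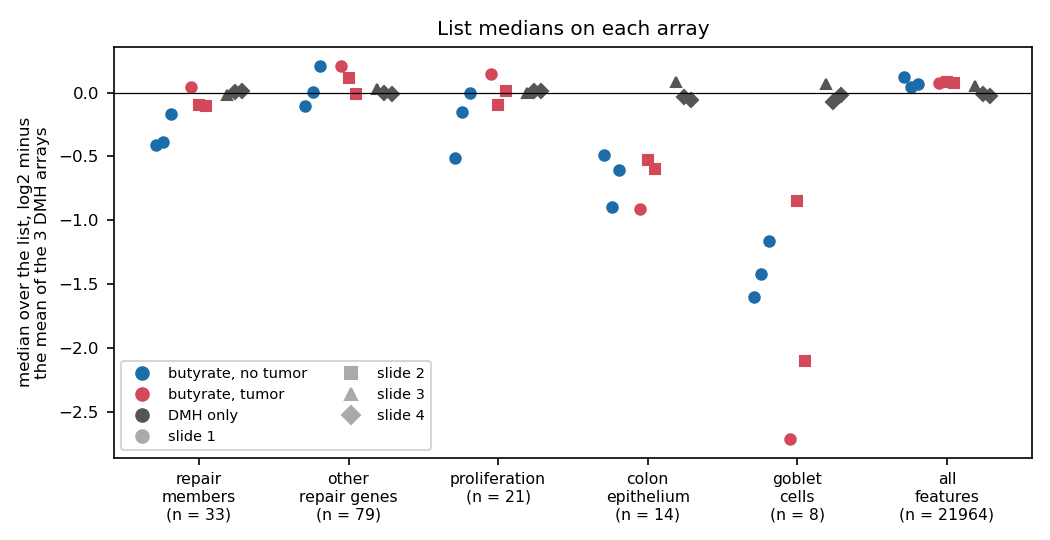
Median of a gene list on each array, as log2 minus the mean of the 3 DMH arrays (y axis), for the 33 repair genes, the 79 other repair genes, 21 proliferation genes, 14 colon epithelium and 8 goblet cell markers and all features. Each point is 1 array, with colour for the group and shape for the slide. The repair genes lie below 0 on the 3 arrays without tumors, and the epithelial and goblet lists on all 6 butyrate arrays.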

How the data were processed

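Gene expression was measured in 9 samples on 9 Agilent 1-colour arrays. Intensity was read per spot and background-corrected by the authors in Agilent Feature Extraction 10.5.1.1, per the submitters' processing notes and the file headers, and deposited as the processed green signal. A second deposited table holds the authors' log2 values of 21829 probes on an unstated centring. Set against the scanner values, each of its columns differs from log2 intensity by a constant, and it served as an alternative.

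From the intensities, log2 values minus the 75th percentile of the array were computed over spots that are not controls, and spots of one probe were averaged. Probes were named through the RefSeq accession in the files where it matched a gene symbol (26933 of 41174 probes). A probe was kept when it was well above background on 3 or more arrays with 2 or more values in each group. The brightest probe stood for a gene. This left 21964 features, 15346 of them named. A second fit held all kept probes of each gene.

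Groups follow the sample titles. All tests are from limma 3.58.1 (lmFit and eBayes, R 4.3.3, statmod 1.5.0), with Benjamini-Hochberg adjustment over all features and a threshold of 0.05. Butyrate mice without tumors, butyrate mice with tumors and DMH mice shared 1 fit, and all butyrate arrays against DMH formed another. Precision is limited by the number of arrays. The median SD over all features was 0.267 without tumors, 0.383 with tumors and 0.116 on DMH. Tested on simulated data of 21855 features for butyrate without tumors against DMH, the fit called 80 of 100 features changed by 2 log2 units and 30 of 100 changed by 1, with 18 false calls. False calls were more in other comparisons, at 56 with tumors against DMH, where 81 and 32 of 100 were called. Between the butyrate groups they numbered 86, beside 75 and 33 of 100. Over all butyrate arrays there were 10, beside 75 and 41 of 100.

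Promoter windows were read from RefSeq for GRCm38.p6, in which 30 of the 33 genes matched. All 33 genes are named with their levels, and of other repair and proliferation genes up to 4 called genes a list and comparison, by smallest p. The genes, the lists and the tests were chosen with earlier results of these data known. Replicate numbers of the titles do not pair samples (4 of 9 correlations of same-numbered arrays over 0.1, from -0.00953 to 0.263). Alternatives changed the scaling, the background correction, the filter, the probe rule, the threshold, the arrays fitted, array weights, the slide and a replicate block. The fit on tumor arrays 2 and 3 alone against DMH was added after the data were seen. Probe sequences were not used here.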

Additional observations from a re-analysis of the deposited data

Results flagged for a closer look

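In 3 of the 33 genes 1 of the 6 butyrate arrays stood apart by Dixon's test, which chance does for about 1 in 20 genes. Tdg was highest on array 3 of the mice without tumors, at 0.07, where the next array was at -0.18 and the lowest at -0.29. Mlh3 was lowest on array 1 of the mice without tumors, at -2.16, where the next was at -1.80 and the highest at -1.60. Atm was lowest on that same array, at -2.58, where the next was at -1.90 and the highest at -1.51. None of these 3 genes was called on the probe used.

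The difference from DMH itself differed between butyrate mice without and with tumors in 2 genes, by limma's contrast between these groups. The gap was -1.17 for Alkbh3 (adjusted p = 0.0379), which its dimmer probe did not share, and -0.71 for Nthl1 (adjusted p = 0.0464). Array 1 of the mice with tumors shares its slide with the arrays without tumors. Neither gap was called with the slide in the fit. With the slide as a fixed block, which rests on tumor array 1, they were -0.68 (adjusted p = 0.229) and -0.41 (adjusted p = 0.282), and with the slide as a random block -0.92 (adjusted p = 0.0852) and -0.56 (adjusted p = 0.109).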

How the results depend on the processing

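Of the member calls, Nthl1 lower without tumors than on DMH was kept in 25 of 25 alternatives and Alkbh2 in 23 of 25, and the others in 12 to 16 of 25. Against mice on DMH, all butyrate arrays had 2020 features called and 2 repair genes, mice without tumors 6694 and 8, and mice with tumors 1252 and 0, and between the butyrate groups 2976 and 2 were called. In this order of comparisons, the features called were 35, 1550, 35 and 1 with no scaling, 11649, 12729, 4966 and 7310 with array weights, and 22, 2132, 8 and 27 at a threshold of 0.01. At a threshold of 0.10 they were 4543 over all butyrate arrays, 3806 with tumors and 5694 between the butyrate groups, and with no filter on dim probes 511, 190 and 1442. With 3 groups in the fit 5052 were called over all butyrate arrays, and with only the 2 groups compared 356 with tumors and 0 between the butyrate groups. With the slide as a random block 17, 1006 and 4 were called against DMH. With the DMH arrays of 1 slide averaged it was 4, 2905, 4 and 1145. On the authors' values 1197 were called over all butyrate arrays and 1956 with tumors, which median scaling gave as 1899 and leaving out slide 1 as 2511. Slide 1 alone called 0 between the butyrate groups.

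Repair genes called, in the same order, were 0, 1, 0 and 0 with no scaling, 17, 19, 5 and 7 with array weights, 0, 2, 0 and 0 at a threshold of 0.01 and 5, 16, 3 and 5 at 0.10. With no filter they were 0 over all butyrate arrays, 4 without tumors and 0 between the butyrate groups, and with these groups in the fit 4, 14 and 0. For these 3, with the slide as a random block they were 0, 1 and 0, and with DMH arrays of 1 slide averaged 0, 2 and 0. With median scaling 5 were called without tumors, 2 with tumors and 1 between the butyrate groups. Between these, it was 1 with quantile scaling, 1 with the probe above background on most arrays, 1 with the slide as a fixed block and 0 within slide 1. Normexp called 2 with tumors and 4 between the groups, the authors' values 3 with tumors, and the filter on all 9 arrays 1. Without slide 1, 1 gene was called. Leaving out 1 array gave 7 to 3607, 2841 to 9931, 4 to 1788 and 171 to 7772 features and 0 to 4, 2 to 14, 0 to 0 and 0 to 5 repair genes. The lowest counts of features against DMH were without DMH array 2 or 3, and the highest count without tumors was without tumor array 1. Between the butyrate groups the lowest was without tumor array 3 and the highest without tumor array 1.

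With the replicate number as a block, 583, 6866, 477 and 2809 features and 0, 11, 0 and 1 repair genes were called. Whether the numbers pair the samples is not known.

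Of 3688 values of the 33 genes under the alternatives 194 had another sign, 188 of them in differences not called. The other 6, in 5 genes, had a call before or after. Atm gave -0.84 over all butyrate arrays and -0.89 without tumors on the probe above background on most arrays, and Alkbh3 0.25 between the butyrate groups. With the mean of the probes Xpc gave -0.55 and Atr -1.16 without tumors, and with no scaling Chek1 gave -0.11. The cause was not tested.

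The share of calls that were lower was 36.4%, 45.4%, 39.6% and 51.6%. It was 60.2%, 41.1%, 75.8% and 23.4% with median scaling and 60.8%, 32.9%, 78.8% and 14.4% on the authors' values, 50.7%, 43.3%, 59.2% and 38.0% with normexp, and 39.6%, 42.1%, 52.5% and 38.8% with quantile scaling. Without scaling the median of all features moved by -0.85, -1.08, -0.61 and -0.47. With 3 arrays a group, a change of 1 log2 unit was missed more often than it was called in simulated data. Those data had no slide effect and far fewer changed features than were called here, so this rate does not carry over to these comparisons.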
